A study of Homo sapiens with 6 samples.

Results

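The genes described here are 46 genes of DNA replication and S phase, measured in Daoy cells, an established human medulloblastoma line, during the unfolded protein response (UPR). The list was made by gene function, with earlier results of these data known. It takes in the origin recognition complex and licensing factors (ORC1 to ORC6, CDC6, CDT1 and GMNN), the replicative helicase and the factors that load or activate it (MCM2 to MCM7, MCM10, CDC45, CDC7, DBF4 and GINS1 to GINS4), the sliding clamp and its loader (PCNA and RFC2 to RFC5), and the polymerases and primase (POLA1, POLA2, PRIM1, PRIM2, POLE, POLE2, POLD1 and POLD3). The rest are the enzymes that join lagging-strand fragments (FEN1 and LIG1), those that supply nucleotides (RRM1, RRM2, TYMS and TK1), and genes of chromatin assembly, DNA methylation and the replication checkpoint (CHAF1A, CHAF1B, UHRF1 and CLSPN). All 46 had a probe set of their own among the 19775 genes of the array that did, and all 46 were among the 12839 genes bright enough to be tested, that is, at 100 signal units or more on 2 or more of the arrays. RNA came from cells treated with 1 µM thapsigargin (Tg) for 3 h or for 8 h and from untreated cells, with 2 Affymetrix arrays per group. Tg blocks the calcium pump of the endoplasmic reticulum (ER) and so brings about the UPR. All cells were of this 1 line, grown with serum, and the labels name no other agent or genetic change for any group.

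DNA is copied once per cell cycle because origins are licensed and fired in separate steps. In G1 the origin recognition complex, CDC6 and CDT1 load the MCM helicase onto origins, and geminin (GMNN) later holds CDT1 back. At S phase entry the kinase of CDC7 and DBF4, together with cyclin-dependent kinases, recruits CDC45 and the GINS complex to the helicase, after which polymerases, clamp and loader build the fork. Many of these genes are known targets of the E2F transcription factors and peak in late G1 and S phase, so that their RNA level follows how many cells of a culture are cycling. The arrays read bulk RNA, in which fewer cells in S phase and less of each RNA per cell cannot be told apart.

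The 6 arrays had been scaled to a common trimmed mean of 500 signal units, and their median signals lay between 69.7 and 103. The ratio of 3' to 5' signal was 2.75 to 4.47 for ACTB, highest on Tg 3 h replicate 1, and 1.13 to 1.24 for GAPDH. The hybridization controls, RNAs added to each sample, averaged 7762 to 11671 units in replicate 1 but 2718 to 2840 units in replicate 2, so that they separated the replicate numbers and not the groups. Of the granule neuron precursor and medulloblastoma markers, ZIC1, ZIC2 and PAX6 had at least 779.4 units on every array, with ZIC1 at up to 3427.2 units, whereas ATOH1 and MYCN were too dim to be tested and GLI1 and OTX2 had at most 187.4 and 146.2 units. With the block 2 of these markers were called lower at 8 h, GLI2 with 196 and 219.2 units against 466.9 and 475.1 in untreated cells (-1.18, adjusted p 0.0248) and SOX2 with 817.7 and 524.8 units against 1359.4 and 1561.5 (-1.15, adjusted p 0.0301). Of 12 such markers, 11 were on the array and 9 were tested, and their summed signal was 7697.2 to 8419.9 units at 3 h, 6780.3 to 6817.3 at 8 h and 8995 to 9347.8 in untreated cells. The 3 ranges did not overlap, and their part in the results below was not tested. None of the 4 immune markers on the array was bright enough to be tested, with 140.2 units at most and a summed signal of 146.4 to 187.3 units at 3 h, 45.4 to 117.5 at 8 h and 107 to 119.3 in untreated cells. The 5 endothelial markers reached 358.9 units at most and summed to 397.7 to 448.3, 403.2 to 495.8 and 459.1 to 517.7 units in the same order. The 7 fibroblast markers summed to 22726.4 to 34092.5 units at 3 h, 22102.9 to 37529.5 at 8 h and 28882.7 to 42641.7 in untreated cells. The 3 ranges overlapped, and the collagen gene COL1A1 made up most of each sum. With the block 1 of the 6 tested, LUM, was called lower at 8 h (-0.91, adjusted p 0.0439) and 0 were called higher. COL1A2 was at 0.76 and did not pass (adjusted p 0.0540 with the block).

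After 8 h of Tg, CDC6 was 3.68-fold higher than in untreated cells. Of the other 45 genes, 16 were called lower when the replicate number was a block, and 0 without it. The median log2 fold change of the 46 genes was -0.39 (-0.35 in replicate 1 and -0.44 in replicate 2), beside -0.09 over all tested genes. In all, 39 of the 46 genes were below 0, 34 of them in both replicates, and 4 were above 0 in both replicates. For counts of genes below or above 0, here and below, the share of all tested genes was not counted. On 30 genes (65.2%) both Tg 8 h arrays were below both untreated arrays, against 26.7% of all tested genes. On 2 genes, CDC6 and CDC45, both Tg 8 h arrays were above both untreated arrays (4.35%, against 15.3% of all tested genes).

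With limma, CDC6 was the only 1 of the 46 called higher at 8 h at an adjusted p under 0.05, where 0.646% of all tested genes were called higher. None was called lower, where 0.21% of all tested genes were. At an unadjusted p under 0.05, 15 of the 46 were lower. The local pooled error test, of the kind named in the study's methods but written anew here, called CDC6 alone and 0 genes lower. Its p-values were adjusted by Benjamini-Hochberg, so its counts are not the study's own. By that test 1.05% of all tested genes were called higher and 0.21% lower. At an unadjusted p under 0.05 it had 5 of the 46 lower. For unadjusted p-values, here and below, the share of all tested genes was not counted. Arrays with the same replicate number deviated together, and with that number as a block 16 of the 46 genes were called lower (34.8%, against 3.79% of all tested genes), with CDC6 again the only gene called higher (2.17%, against 4.76%). Of these 16 calls, 2 were left without untreated replicate 1, 5 without untreated replicate 2, 6 without Tg 8 h replicate 1, 8 without Tg 8 h replicate 2, and 7 when each array was centred on its median. The word "fell" is used below for those 16. Each SE printed below is from limma without the block, and so is not the SE behind a p-value with the block. These counts are a description of the 46 genes. For the runs without an array or with median centring, the share of all tested genes called was not counted.

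**Figure D1:**
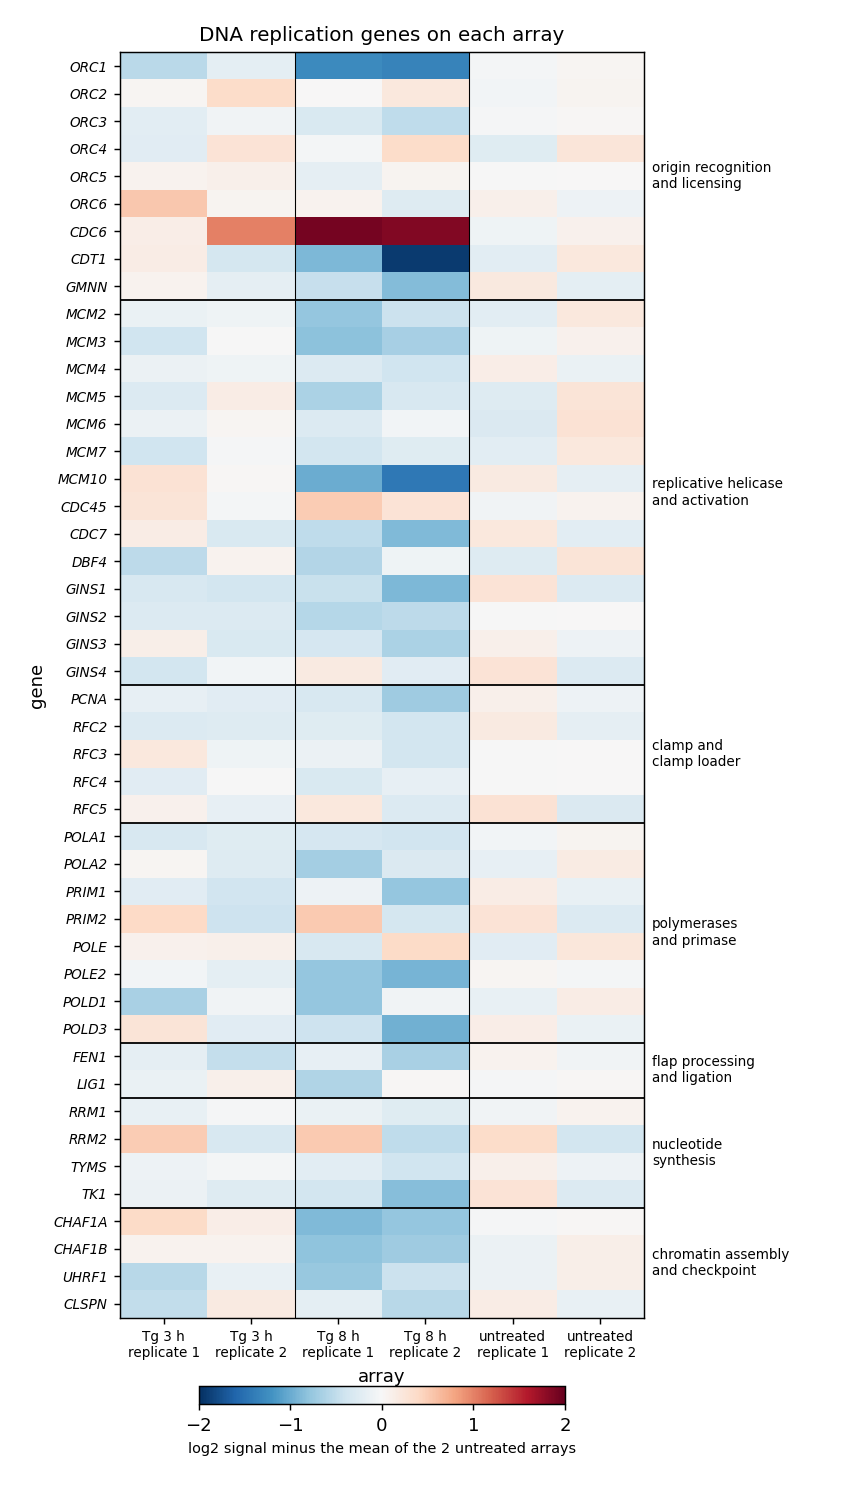
Log2 signal of each of the 46 replication genes (rows, grouped by role) on each of the 6 arrays (columns), minus the mean of the 2 untreated arrays of that gene. Blue is lower and red is higher. The 2 Tg 8 h columns are mostly blue, with CDC6 the strongest red, whereas the Tg 3 h columns are mostly pale.

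**Figure D2:**
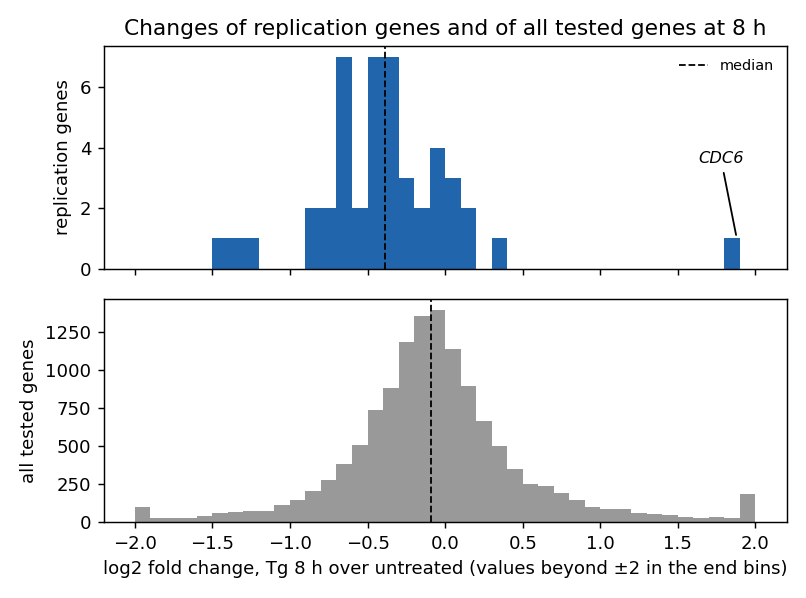
Log2 fold change at 8 h of Tg over untreated for the 46 replication genes (top) and all 12839 tested genes (bottom), with the number of genes per bin on the vertical axis. The dashed lines mark medians of -0.39 and -0.09, and CDC6 stands alone on the right at 1.88.

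Because many of these genes are known as E2F targets, the promoters of the 46 genes were searched for E2F motifs. The windows were those of RefSeq (GRCh38.p14), from 250 bases before to 50 bases after a gene's start, and 42 of the 46 genes had one (not MCM4, MCM5, GINS4 and POLD3). In 37 of the 42 the start was that of the gene in the RefSeq gene table, and in the others it was another listed start. The letters searched were TTTCCCGC, TTTCGCGC, TTTGCCGC and TTTGGCGC on both strands. At least 1 match was in 20 of the 42 windows (47.6%), against 5.2% of the windows of 10461 tested genes and 3.33% of all 27305 windows. A match was in 8 of the 15 windows of genes that fell and in 12 of the 27 others, and these shares were not compared by a test. The stretches below are shown because they place CDC6, which went up, beside 5 genes that fell and 1 that did not pass the test, MCM6. Each is written 5′ to 3′ along the gene, with the matched letters in capitals.
CDC6 (chr17:40287876-40287903, plus strand): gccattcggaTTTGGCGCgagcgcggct
CDT1 (chr16:88803744-88803771, plus strand): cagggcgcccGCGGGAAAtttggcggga
MCM2 (chr3:127598403-127598430, plus strand): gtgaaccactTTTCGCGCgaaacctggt
MCM3 (chr6:52284729-52284756, minus strand): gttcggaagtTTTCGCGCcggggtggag
GINS1 (chr20:25407668-25407695, plus strand): gctttgttcgGCGCCAAAgcgcggagcg
POLE2 (chr14:49688202-49688229, minus strand): tgcggcggtgGCGCCAAAtcgcaaatat
MCM6 (chr2:135876516-135876543, minus strand): attggtcaggTTTGGCGCgaaatctcca
In MCM2 and in MCM6 a match on the other strand overlaps the one shown.

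The CCAAT box, bound by NF-Y, was in 22 of the 42 windows (52.4%), against 37% of the windows of tested genes and 35.7% of all windows. CDC6 had 3 of them, and the stretch that holds them, from base -136 to base -36 relative to its start, is shown with each CCAAT, or its reverse complement ATTGG, in capitals.
CDC6 (chr17:40287743-40287843, plus strand): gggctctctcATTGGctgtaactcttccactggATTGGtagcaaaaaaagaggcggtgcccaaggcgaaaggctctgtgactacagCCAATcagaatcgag
TTTGAA, the letters of the CHR element of many mitotic genes, was in 2 windows, those of DBF4 and RRM1 (4.76%, against 10.1% of the windows of tested genes and 15.4% of all). TGACGTGG, an element bound by the UPR factors ATF6 and XBP1, was in 0 of the 42 windows, against 1% of those of tested genes and 0.795% of all. A match of letters is not a bound site.

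Among the licensing genes CDC6 was the one that rose. Its protein is the ATPase that joins the origin recognition complex and brings in the MCM helicase. The signal of CDC6 was 2753.3 and 5019.1 units at 3 h and 9383.5 and 9032.3 at 8 h, against 2351.6 and 2661.8 units in untreated cells. Both arrays of each Tg group were above both untreated arrays, and both 8 h arrays were above both 3 h arrays. At 8 h the log2 fold change was 1.88 (SE 0.29), with an adjusted p of 0.0412 by limma and 0.000676 with the block, and it was 2.00 in replicate 1 and 1.76 in replicate 2. A second probe set of CDC6 gave 1.87 (adjusted p 0.0207, and 0.000262 with the block). Over all tested genes CDC6 ranked 190 of 12839 by its log2 fold change. Without the block the call was lost on leaving out either Tg 8 h array (adjusted p 0.260 without replicate 1 and 0.187 without replicate 2) or either untreated array (0.173 and 0.0678), as well as with median centring (0.206), without the intensity trend (0.272) and with signals under 100 raised to 100 (0.0631). With the block it was kept with median centring, with quantile normalization and with the mean of all probe sets. The fit without the intensity trend and the floor of 100 were not run with the block.

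CDT1, the partner of CDC6 in loading the helicase, went the other way. Its signal was 1578.1 and 1104.7 units at 3 h and 758.7 and 373.8 at 8 h, against 1220.3 and 1643.6 in untreated cells. CDT1 fell with a log2 fold change of -1.41 (SE 0.36, adjusted p 0.0185 with the block and 0.197 without it), although its size differed between replicate 1 (-0.69) and replicate 2 (-2.14). ORC1, the largest subunit of the origin recognition complex and the one known to cycle, had 443.3 and 562.2 units at 3 h and 266.5 and 255.1 at 8 h, against 624.6 and 660.6 in untreated cells. The 3 groups of ORC1 did not overlap, and at 8 h it fell by 1.30 on the log2 scale (SE 0.25, adjusted p 0.00684 with the block and 0.0814 without it). Geminin, the inhibitor of CDT1, had 7875.6 and 6635.2 units at 3 h and 5488 and 4132.7 at 8 h, against 8586.9 and 6578.9 in untreated cells, so that both 8 h arrays were below the other 4. GMNN fell by 0.66 (SE 0.24, adjusted p 0.00878 with the block and 0.411 without it).

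The other subunits of the origin recognition complex, which are known to be steadier through the cycle, showed smaller values. Their log2 fold changes at 8 h were 0.11 for ORC2, -0.41 for ORC3, 0.17 for ORC4, -0.06 for ORC5 and -0.09 for ORC6, and none passed the test with or without the block. Of these, ORC3 alone had both 8 h arrays (2419.7 and 2092.1 units) below both untreated arrays (2939.7 and 3024.1 units). Of the 9 genes of origin recognition and licensing, 3 thus fell and 1 rose, with a median log2 fold change of -0.09.

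**Figure D3:**
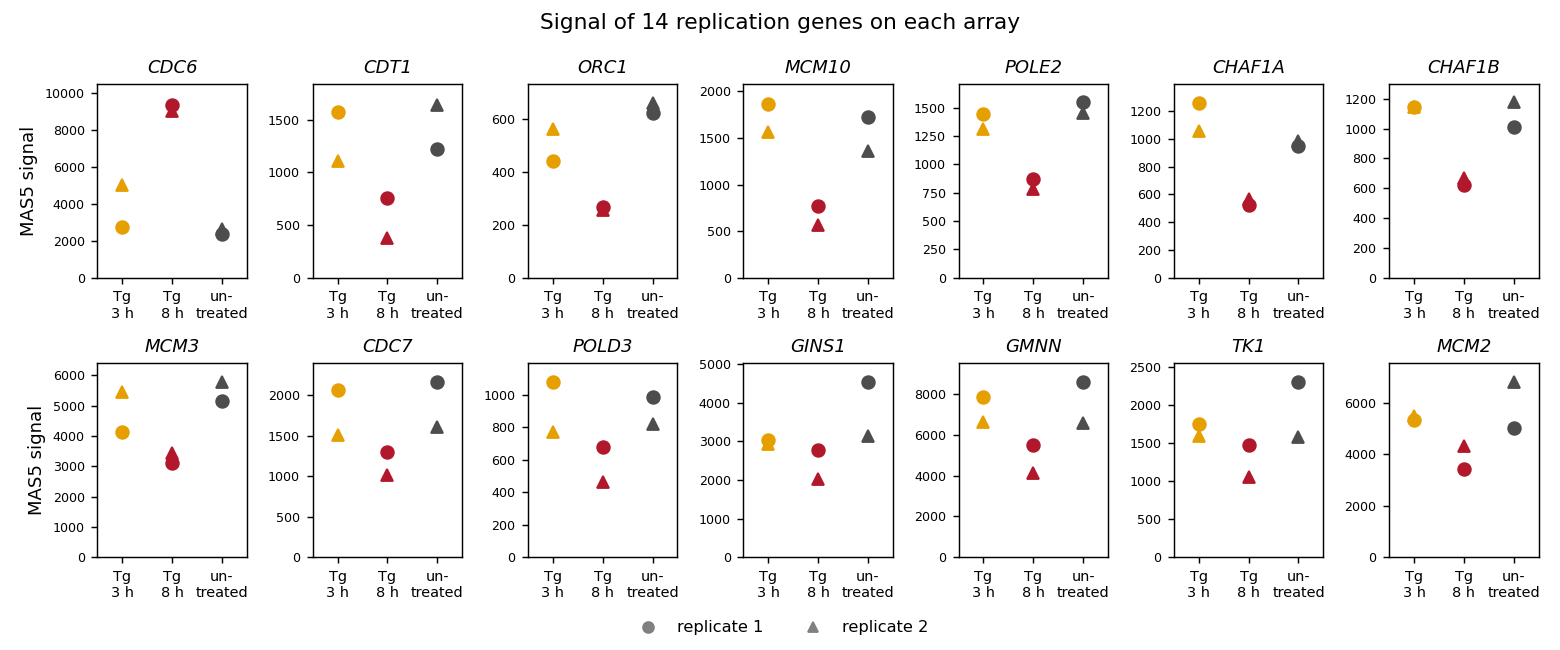
MAS5 signal (linear axis from 0) of 14 replication genes on each array, for Tg 3 h, Tg 8 h and untreated cells, with circles for replicate 1 and triangles for replicate 2. CDC6 is the only gene of the 14 whose Tg 8 h points lie above the untreated points. In the other 13 both Tg 8 h points lie below them.

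Of the 14 genes of the helicase and its activation, 6 fell and 1 was above 0, with a median log2 fold change of -0.48. The largest change was that of MCM10, a factor needed to start unwinding at loaded helicases. MCM10 had 1865 and 1560.5 units at 3 h and 770.8 and 566.4 at 8 h, against 1724.1 and 1358.3 in untreated cells, so that it was low at 8 h only. Its log2 fold change at 8 h was -1.21 (SE 0.25, adjusted p 0.00151 with the block and 0.0931 without it), and the replicates were close to each other (-1.16 and -1.26). The other tested probe sets of MCM10 were at -0.60 and -0.59 and did not pass (adjusted p 0.238 and 0.252 with the block). On the probe sets used, MCM10, ORC1 and CDT1 were the 3 of the 46 at or below -1 at 8 h, as were 615 of all tested genes.

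The helicase itself is a ring of MCM2 to MCM7, of which MCM2 and MCM3 passed the test with the block. MCM3 had 4132.7 and 5436.7 units at 3 h and 3106.2 and 3451.1 at 8 h, against 5143.7 and 5790.7 in untreated cells, and fell by 0.74 (SE 0.22, adjusted p 0.00716 with the block and 0.257 without it). MCM2 had 5327.6 and 5505.9 units at 3 h and 3434.8 and 4334.9 at 8 h, against 5035.4 and 6817.5 in untreated cells, and fell by 0.60 (SE 0.23, adjusted p 0.0255 with the block and 0.436 without it). In both genes the 8 h arrays lay below all others. The changes of MCM4 (-0.34), MCM5 (-0.47), MCM6 (-0.17) and MCM7 (-0.31) did not pass the test in either fit, and MCM6, at 4577.8 and 5334.8 units at 8 h against 4556.5 and 6759.5 in untreated cells, was the subunit whose groups overlapped.

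CDC7, the kinase that phosphorylates the loaded helicase, had 2072.7 and 1511 units at 3 h and 1305.9 and 1015.2 at 8 h, against 2164.3 and 1606.1 in untreated cells. It fell by 0.70 (SE 0.26, adjusted p 0.0172 with the block and 0.419 without it), whereas its activating subunit DBF4, at -0.33, did not pass the test and had overlapping groups. GINS1 had 3023.9 and 2923.6 units at 3 h and 2765.2 and 2027.4 at 8 h, against 4528.2 and 3127.9 in untreated cells. Every Tg array of GINS1 was below both untreated arrays, and at 8 h it fell by 0.67 (SE 0.25, adjusted p 0.0275 with the block and 0.426 without it). GINS2 fell by 0.55 (adjusted p 0.0368 with the block), while GINS3 (-0.48) and GINS4 (-0.02) did not pass. CDC45, which joins GINS on the helicase, was the exception in this group: it had 1274.3 and 1087.3 units at 8 h against 857.4 and 941.2 in untreated cells, a log2 fold change of 0.39 that did not pass the test (adjusted p 0.236 with the block).

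At the fork, fewer genes passed. PCNA, the sliding clamp, had 10277 and 7855.2 units at 8 h against 13739 and 11984 in untreated cells and fell by 0.51 (adjusted p 0.0335 with the block), and it was the 1 of 5 genes of clamp and loader that did. The clamp loader subunits were at -0.30 (RFC2), -0.24 (RFC3), -0.23 (RFC4) and -0.03 (RFC5). Of the 8 genes of polymerases and primase 2 fell, both of them accessory subunits and not the catalytic ones. POLE2, the second subunit of polymerase epsilon, had 1448.7 and 1312.9 units at 3 h and 874.2 and 784.9 at 8 h, against 1548.7 and 1454.7 in untreated cells. It fell by 0.86 (SE 0.20, adjusted p 0.00823 with the block and 0.144 without it), and the catalytic subunit POLE was at 0.04 with overlapping groups.

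POLD3, a subunit of polymerase delta, had 1074.3 and 770.2 units at 3 h and 675.9 and 461.7 at 8 h, against 986.2 and 821.4 in untreated cells. It fell by 0.69 (SE 0.28, adjusted p 0.0467 with the block and 0.478 without it), beside -0.42 for the catalytic subunit POLD1, which did not pass. Whether the changes of POLE2 and POLE, or of POLD3 and POLD1, differ from each other was not tested. Polymerase alpha and its primase, which lay down the primers, were at -0.36 (POLA1), -0.49 (POLA2), -0.44 (PRIM1) and 0.09 (PRIM2), none of them passing. The flap nuclease FEN1 (-0.41) and DNA ligase LIG1 (-0.29) did not pass either. LIG1 differed between the replicates, with -0.59 in replicate 1 and 0.01 in replicate 2.

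Of the 4 genes of nucleotide synthesis, the salvage enzyme thymidine kinase TK1 was the one that fell. TK1 had 1748.1 and 1590.6 units at 3 h and 1476 and 1057.2 at 8 h, against 2296.3 and 1578 in untreated cells, with a log2 fold change of -0.61 (SE 0.26, adjusted p 0.0481 with the block and 0.500 without it). Ribonucleotide reductase, which makes the deoxynucleotides, was at -0.19 for its large subunit RRM1 and 0.01 for its small subunit RRM2. RRM2 had the single highest signal of the 46 genes and followed the replicate number more than the treatment, with 19661 and 9657.8 units at 8 h against 17690 and 10633 in untreated cells. Thymidylate synthase (TYMS) was at -0.31 and did not pass. On a second probe set TK1 was at -0.52 and did not pass (adjusted p 0.183 with the block). TYMS on a second probe set was at -0.52 and did pass (adjusted p 0.0469 with the block). Which of these genes passed thus depended on the probe set read.

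The chromatin genes had the lowest median of the groups, -0.68 over 4 genes, of which 3 fell. CHAF1A and CHAF1B are the large and middle subunits of chromatin assembly factor 1, which places histones on new DNA behind the fork. CHAF1A had 1255.9 and 1052.2 units at 3 h and 523 and 564.2 at 8 h, against 948.1 and 981.9 in untreated cells, and CHAF1B had 1143.5 and 1145.8 units at 3 h and 622.8 and 666.2 at 8 h, against 1009.8 and 1177.4 in untreated cells. Both were low at 8 h only. CHAF1A fell by 0.83 (SE 0.21, adjusted p 0.0220 with the block and 0.197 without it) and CHAF1B by 0.76 (SE 0.21, adjusted p 0.0230 with the block and 0.218 without it). UHRF1, which carries DNA methylation over to the new strand, fell by 0.60 (adjusted p 0.0248 with the block). The checkpoint adaptor claspin (CLSPN) was at -0.37 without passing, and it held the lowest signal of the 46 genes, 232.3 units.

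**Figure D4:**
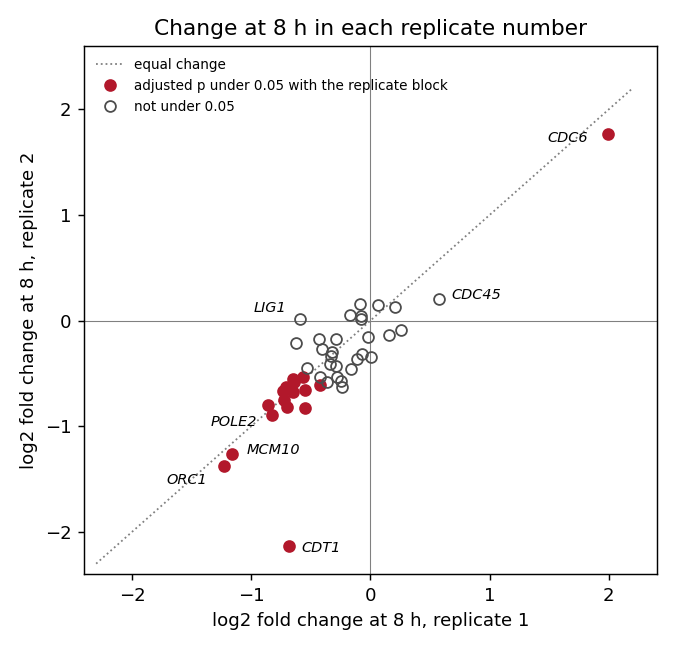
Log2 fold change at 8 h over untreated within replicate 1 (horizontal axis) and within replicate 2 (vertical axis) for each of the 46 genes. Filled points are the 17 called with the replicate block, and the dotted line marks equal change. Most points lie at the lower left, CDC6 lies alone in the upper right, and CDT1 is far from the line with -0.69 and -2.14.

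The distance of CDC6 from the rest of the genes was compared between groups. CDC6 was set against the rest with earlier results of these data known, so the distance is a description and not a test. The log2 signal of CDC6 minus the median of the other 45 genes was 0.41 and 1.07 at 3 h and 2.45 and 2.26 at 8 h, against -0.03 and 0.04 in untreated cells. The 3 groups did not overlap. Signals of different probe sets are not comparable as levels, so the differences between groups are what can be read: 2.35 at 8 h over untreated (2.47 in replicate 1 and 2.22 in replicate 2), 0.74 at 3 h over untreated (0.44 and 1.04) and 1.61 at 8 h over 3 h. Both sides contributed, since the median signal of the other 45 genes was 1723.4 and 1887.1 units at 8 h against 2400.5 and 2594.4 in untreated cells. With 2 arrays per group no exact permutation test can reach a low p, so none is given.

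**Figure D5:**
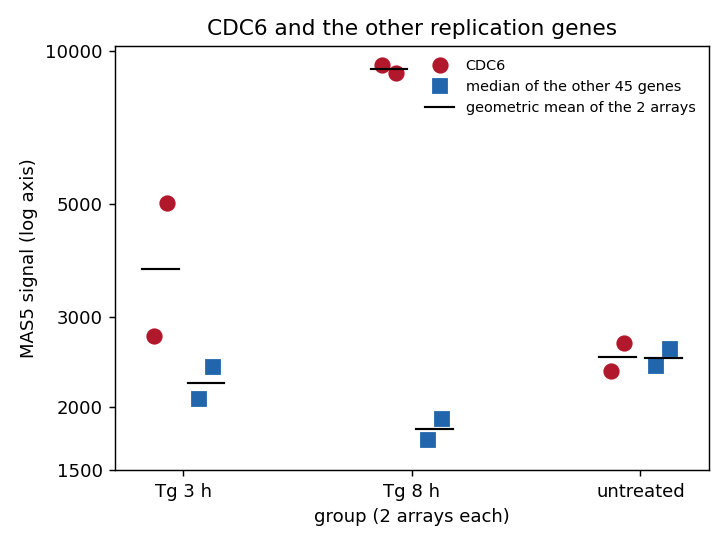
MAS5 signal (log axis) of CDC6 (red circles) and the median signal of the other 45 replication genes (blue squares) on each array, by group, with lines at the geometric mean of the 2 arrays. At 8 h of Tg the red points lie above, and the blue points below, their own positions in untreated cells. Heights of different probe sets are not comparable as levels.

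At 3 h none of the 46 genes passed the test in either fit. limma called 0 of them lower or higher, where 0% of all tested genes were called lower and 0.0701% higher. At an unadjusted p under 0.05, 0 of them were lower or higher by limma. The local pooled error test called 0, where it called 0% of all tested genes lower and 0.296% higher. With the block 0 were called, with 3 lower and 1 higher at an unadjusted p under 0.05, where 0.0779% of all tested genes were called lower and 1.17% higher. The median log2 fold change of the 46 was -0.10, beside -0.02 over all tested genes, and 33 were below 0. Both Tg 3 h arrays were below both untreated arrays on 11 genes (23.9%, against 16.5% of all tested genes) and above them on 3, CDC6, ORC5 and CHAF1A (6.52%, against 14%). The range of values ran from -0.36 for ORC1 to 0.57 for CDC6, whose adjusted p with the block was 0.297.

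Set against 3 h, the cells at 8 h had a median log2 fold change of -0.24 over the 46 genes, beside -0.06 over all tested genes. Without the block limma called 0 of the 46 lower and 0 higher, as it called 0% of all tested genes in either direction. At an unadjusted p under 0.05, 10 of the 46 were lower and 1 higher by limma. The local pooled error test called 0 of the 46, where it called 0.148% of all tested genes lower and 0.164% higher. With the block 6 were called lower (13%, against 1.72% of all tested genes) and 1 higher (2.17%, against 1.53%). The 6 were MCM10 (-1.37, adjusted p 0.00507), CHAF1A (-1.08, adjusted p 0.0163), GMNN (-0.60, adjusted p 0.0285), CHAF1B (-0.83, adjusted p 0.0313), POLE2 (-0.74, adjusted p 0.0351) and CDT1 (-1.31, adjusted p 0.0477). The gene called higher was CDC6 (1.31, adjusted p 0.0127), whose call was lost without Tg 3 h replicate 1. Of the 6 lower calls, 1 was left without Tg 3 h replicate 1 and 2 without Tg 3 h replicate 2, without either Tg 8 h array or with median centring. The share of all tested genes called in these runs was not counted. Both 8 h arrays were below both 3 h arrays on 24 genes (52.2%, against 22.6% of all tested genes) and above them on 2, CDC6 and CDC45 (4.35%, against 14%).

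Most genes had more than 1 probe set to read from. Of the 46 genes, 24 had several that were tested, and 30 of the 33 further probe sets had the same sign at 8 h as the one used. The 3 that did not belonged to ORC5, RFC3 and RRM2, none of which passed the test. Sign was shared more than passing. With the block, further probe sets of CDT1 (-0.92, adjusted p 0.0520), MCM10 and TK1 did not pass at 8 h. Nor did those of GINS2 (adjusted p 0.445) and POLD3 (adjusted p 0.840), which reached at most 139.1 and 156.5 units. CHAF1A had a further probe set that passed (-0.98, adjusted p 0.0206) and another that did not (-0.84, adjusted p 0.0737).

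Other genes of replication, none of them among the 46, were looked at in the same way. Of 40 on that list 39 were on the array and tested. At 8 h their median log2 fold change was -0.23 and 34 were below 0, with 0 called without the block and 3 called lower and 1 higher with it, where 3.79% of all tested genes were called lower and 4.76% higher. The 3 lower were CDCA7 (-1.14, adjusted p 0.00549), DTL, which helps to degrade CDT1 during S phase (-0.92, adjusted p 0.0305), and SLBP, which processes histone mRNA (-0.59, adjusted p 0.0232). The 1 higher was the topoisomerase TOP1, at 6927.9 and 8472.6 units at 8 h against 3175 and 3950 in untreated cells (1.11, adjusted p 0.000649 with the block and 0.101 without it).

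Genes of G2 and mitosis, which act after replication, were described in the same way. All 25 on the list were tested and all 25 were below 0 at both times, with a median log2 fold change of -0.28 at 3 h and -0.44 at 8 h. With the block 0 were called at 3 h and 6 were called lower at 8 h, BUB1B (-0.89, adjusted p 0.0067), KIF20A (-0.75, adjusted p 0.0216), KIF11 (-0.75, adjusted p 0.0259) and NUSAP1 (-0.68, adjusted p 0.00913) among them, where 3.79% of all tested genes were called lower, and without the block 0 were called. At 3 h their median lay below the -0.10 of the 46 replication genes, and whether the lists differ was not tested. The part of the mitotic genes in the change of the replication genes was not tested.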

How the data were processed

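Total RNA of Daoy cells was measured on 6 Affymetrix arrays, 2 per group, from 2 independent experiments per the study's methods. The authors deposited linear MAS5 signal intensities, scaled on each array to a trimmed mean of 500 (2% trimmed at each end), which were log2 transformed here. The labels do not say which culture or experiment each array came from, so p-values reflect the spread among these 6 arrays. How much of that spread is technical is not known. Depth has no counterpart on arrays, whose small number limits the precision.

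Of 54675 probe sets, 41097 carried 1 gene symbol in the platform annotation, 1801 several and 11777 none, and 0 symbols changed against RefSeq. Each gene's value came from its brightest own probe set (mean log2 signal), and those with several symbols were not used. The 27616 probe sets that reached 100 units on 2 or more arrays were fitted on all 6 arrays with limma 3.58.1 in R 4.3.3 (lmFit, eBayes with an intensity trend, group as the term), and tested two-sided, with p-values adjusted over all of them (Benjamini-Hochberg) and a threshold of 0.05. The script was tested on simulated data. Promoter windows were read with Python 3.11.15 and pandas 2.3.3 from RefSeq, taking the first listed start of a gene, and figures were drawn with matplotlib 3.10.9.

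The replicate numbers pair the arrays: the deviations from the group means of same-numbered arrays correlated over probe sets at 0.26 to 0.32, and at 0.66 to 0.70 over the 12451 averaging 500 units or more. The blocked fit adds that number as a term, and the SEs printed are from the fit without it. The members, the lists and the contrast of CDC6 with the rest were chosen with earlier results of these data known. Values on every array are printed for CDC6, for genes called without the block, and for the genes called with the block that changed most at 8 h, 14 in all, and values of other genes were chosen after they were seen. Alternatives were the block, the local pooled error test, no intensity trend, quantile normalization, median centring, no filter or a minimum of 200, a floor of 100, log2 of the signal plus 50, a fit of the 4 arrays compared, leaving out each array, and averaging a gene's probe sets. Within the blocked fit only median centring, quantile normalization, averaging a gene's probe sets and leaving out each array were run. These runs, and the alternatives for 8 h against 3 h and for genes whose arrays do not overlap, were chosen after seeing the data.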

Additional observations from a re-analysis of the deposited data

Results flagged for a closer look

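For 7 of the replication genes the effect of Tg at 8 h differed from that at 3 h when the 2 times were tested against each other with the replicate block. CDC6 was higher at 8 h than at 3 h by 1.31 on the log2 scale (adjusted p 0.0127, limma). MCM10 was lower by a log2 fold change of -1.37 (adjusted p 0.00507), CDT1 of -1.31 (adjusted p 0.0477), CHAF1A of -1.08 (adjusted p 0.0163), CHAF1B of -0.83 (adjusted p 0.0313), POLE2 of -0.74 (adjusted p 0.0351) and GMNN of -0.60 (adjusted p 0.0285). With the block 1.72% of all tested genes were called lower and 1.53% higher. Other tested probe sets of MCM10 (adjusted p 0.0637 and 0.100 with the block) and CDT1 (0.162) did not pass. Those of CHAF1A gave 0.0526 and 0.0265, and that of CDC6 gave 0.0082. Without the block none of the 7 passed, with adjusted p from 0.279 for MCM10 to 0.714 for GMNN. The untreated arrays enter these tests through the spread and the block, which were estimated on all 6 arrays.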

How the results depend on the processing

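The replicate block changed the counts of calls: 16 genes lower at 8 h against 0 without it, and 6 lower and 1 higher at 8 h against 3 h, where there were 0 without it. The 13 other named genes were chosen for passing with the block, which leaves each fold change as it was. CDC6 was called higher at 8 h in the fit without the block, and that count of 1 was 0 without the intensity trend, with median centring, with signals under 100 raised to 100, and in the range of 0 to 1 on leaving out single arrays. With the block it stayed 1 with median centring, quantile normalization and the mean of all probe sets. The intensity trend, the filter and the floor were not varied within the block. Apart from the block itself, the share of all tested genes called was not counted for the alternatives given here. The 16 genes were 7 with the block and median centring, 16 (14 of them shared) with quantile normalization and 13 with the mean of all probe sets, and ranged from 2 (without untreated replicate 1) to 16 on leaving out an array. At 8 h against 3 h, the 6 were 2 with median centring and ranged from 1 (without Tg 3 h replicate 1) to 6, and the 1 higher ranged from 0 (without Tg 3 h replicate 1) to 1. At 8 h 5 genes were left without untreated replicate 2, 6 without Tg 8 h replicate 1 and 8 without its replicate 2, and, at 8 h against 3 h, 2 were left without Tg 3 h replicate 2 or either Tg 8 h array.

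Centring each array on its median moved the median of all tested genes to -0.14 at 3 h (from -0.02) and to 0.14 at 8 h against 3 h (from -0.06). The median of the replication genes at 3 h was then -0.21, and it was -0.075 with quantile normalization, -0.11 with the mean of all probe sets and -0.12 to -0.073 without single arrays. At 8 h it was -0.31 with median centring and -0.40 to -0.32 without single arrays, and at 8 h against 3 h -0.045 with median centring, a shift that this scaling gives to every gene alike. With median centring 12 genes had both 8 h arrays below both 3 h arrays, against 24, and 1 had both 3 h arrays above both untreated arrays, against 3. The shares of all tested genes with median centring were not counted, so these counts have no background to be read against. No fold change of a named gene and no median over the 46 genes changed sign in any alternative run. With 2 arrays per group, changes of the size of most of these genes were not called without the block.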
